A study of Mus musculus with 12 samples.

Results

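The cell cycle genes described here are 39 genes of DNA replication and mitosis, chosen by gene name from the 56980 rows of the expression table. All 39 were found once each, and all 39 had enough counts to be tested among 17827 genes. Polyadenylated RNA was sequenced in 12 libraries from the lungs of male mice of strain C57BL/6, which were 6 to 8 weeks old. The 4 HBG libraries came from mice given bleomycin, a drug that injures the lung and leaves fibrosis, at 5 mg/kg into the trachea, together with an oral dose of 7 g/kg of a herbal medicine from China, Huashibaidu granules. The 4 Model libraries came from mice given the same dose of bleomycin, and distilled water in place of the granules. The 4 Control libraries came from mice given distilled water, and what their tracheas received is not stated. Per the series text the granules began a week before bleomycin and went on until death on day 28, whereas the sample text has them begin on day 7 and last 14 days. Nothing in the labels ties the libraries to separate animals, so p-values here measure the spread between libraries, which may be technical.

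A cell that divides first copies its DNA in S phase and then separates the copies in mitosis. Transcription of the genes for the first step is switched on largely by E2F factors, and that of the genes for the second by the MuvB complex with B-MYB and FOXM1. In resting cells the DREAM complex, which also contains MuvB, holds these genes off, and both forms of MuvB act at a CHR element close to the start site. CCAAT boxes near it bind the activator NF-Y. In the resting lung few cells divide, and after injury alveolar type II cells, fibroblasts, endothelial cells and macrophages can enter the cycle. Blood cell precursors and activated lymphocytes divide rapidly and use the same genes, so the RNA of these genes in whole tissue does not name the dividing cell. In whole tissue, fewer cells of a type and less RNA per cell cannot be told apart.

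The promoters of 5 members are shown because they carry the elements named above and stand for the mitotic and the replication genes. The sequences are from RefSeq on GRCm38.p6, and each line holds the 170 bases before the start site, written 5′ to 3′ on the gene's own strand. Capitals mark a match, on either strand, to the CHR element TTTGAA, to the box named after its letters CCAAT, or to an E2F core. The E2F core was searched in the spelling TTCCCGC, in the spelling TTCGCGC, in the spelling TTGCCGC and in the spelling TTGGCGC. E2F cores on opposite strands can overlap within a stretch of capitals, and an E2F core can overlap a CCAAT box.
Cdk1 (chr10:69352913-69353082, minus strand): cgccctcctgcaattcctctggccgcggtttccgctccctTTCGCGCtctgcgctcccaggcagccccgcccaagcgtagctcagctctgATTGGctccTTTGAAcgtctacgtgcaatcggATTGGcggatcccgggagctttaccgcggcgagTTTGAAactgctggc
Cdc20 (chr4:118437344-118437513, minus strand): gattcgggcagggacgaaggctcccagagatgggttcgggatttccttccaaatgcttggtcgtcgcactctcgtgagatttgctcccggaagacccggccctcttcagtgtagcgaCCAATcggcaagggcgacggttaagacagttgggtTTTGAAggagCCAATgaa
Kif11 (chr19:37376212-37376381, plus strand): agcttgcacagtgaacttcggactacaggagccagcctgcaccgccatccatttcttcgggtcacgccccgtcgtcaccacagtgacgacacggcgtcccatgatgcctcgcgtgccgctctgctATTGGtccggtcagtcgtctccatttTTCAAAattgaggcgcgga
Mcm6 (chr1:128359706-128359875, minus strand): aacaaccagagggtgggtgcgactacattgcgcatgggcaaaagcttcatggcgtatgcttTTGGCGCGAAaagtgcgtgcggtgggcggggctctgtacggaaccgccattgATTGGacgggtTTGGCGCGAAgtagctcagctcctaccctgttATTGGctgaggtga
Mcm7 (chr5:138171884-138172053, minus strand): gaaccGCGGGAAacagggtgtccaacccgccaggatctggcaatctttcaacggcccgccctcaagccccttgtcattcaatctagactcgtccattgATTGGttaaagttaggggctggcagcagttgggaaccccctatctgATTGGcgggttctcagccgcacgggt
Cdk1 had both a CHR and an E2F core, Cdc20 and Kif11 had a CHR and CCAAT but no E2F core, and Mcm6 and Mcm7 had CCAAT and at least 1 E2F core but no CHR. Counted from the start site, the nearest CHR began at position -15 in Cdk1, -18 in Cdc20 and -19 in Kif11.

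A RefSeq promoter, taken as 250 bases before to 50 bases after the start, was found for 32 of the 39 members. Foxm1, Kif20a, Tpx2, Aurkb, Mcm4, Stmn1 and Ccna2 were not matched. A CHR was present in 18 of the 32 (56.2%), against 18.1% of the 27025 promoters of the table. A CCAAT box was present in 27 of the 32 (84.4%), against 37.9% of all promoters. An E2F core was present in 11 of the 32 (34.4%), against 9.69% of all promoters. Among the 21 members of mitosis with a promoter, 16 held a CHR (76.2%) and 5 an E2F core (23.8%). Among the 5 matched genes of the MCM helicase, 1 held a CHR and 4 an E2F core. The 3 motifs were absent from the windows of Nusap1, E2f1, Tyms and Birc5. These are matches of letters in a window and were not tested as sites.

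**Figure D1:**
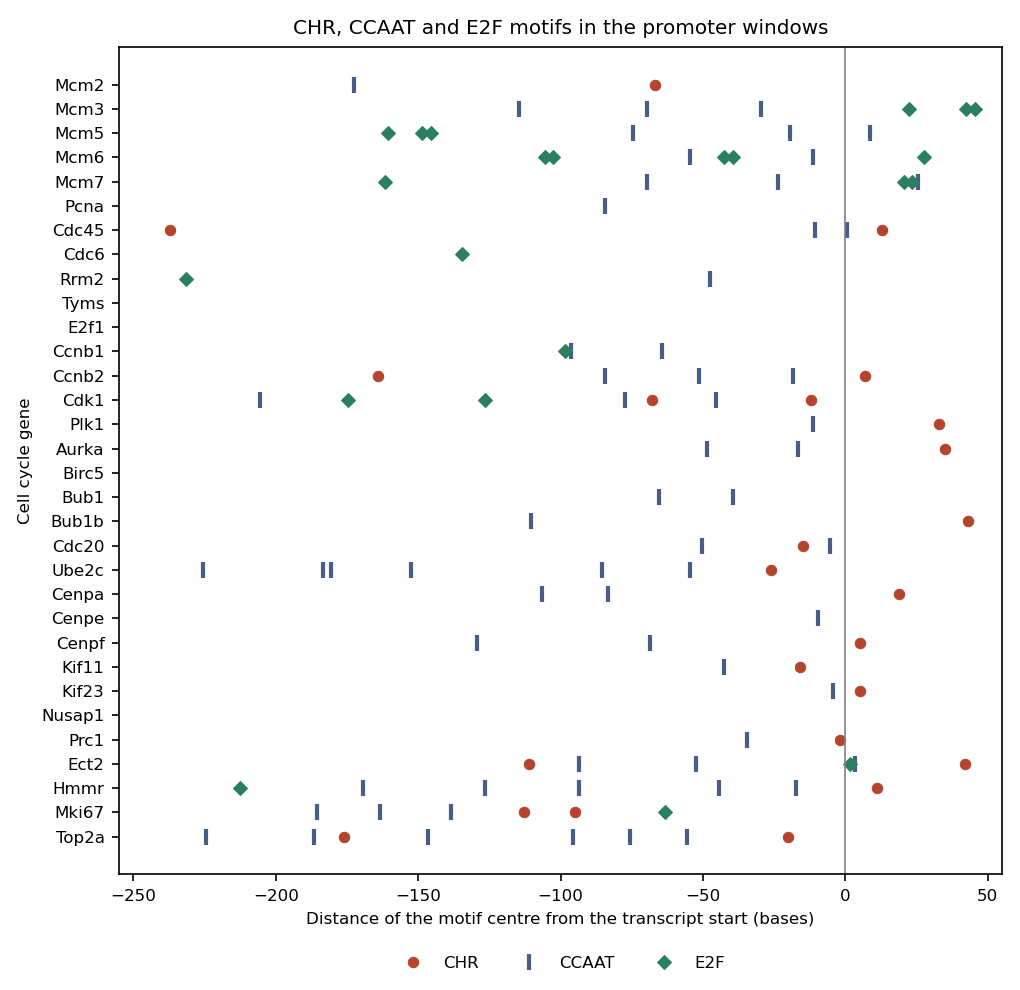
Position of each CHR (circles), CCAAT box (bars) and E2F core (diamonds) in the promoters of 32 members (rows, by role), as the distance of the motif's centre from the start site in bases. The CHR circles lie mostly in the rows of mitotic genes, where 16 of 21 promoters hold one, and the E2F diamonds gather in the rows of the MCM genes, where 4 of 5 do.

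Depth was similar between groups, at 17979863 to 20752001 counts per library in HBG, 19230806 to 22622406 in Model and 18864759 to 27150787 in Control. A count of 0 in a library allows 3 counts, which is 0.117 to 0.166 CPM, the count scaled by the size of the library, a limit for counting error only. The lung was identifiable in every library, with Sftpc, the surfactant protein C gene of alveolar type II cells, at 7736 to 18928 CPM. In the cell cycle genes HBG 3, Model 2 and Control 4, 1 library of each group, stood apart from the rest. HBG 3 had the highest value of the 12 libraries for 38 of the 39 members, and E2f1 was highest in Model 1. HBG 3 was among the highest 3 libraries for 39 members, Model 2 for 34 and Control 4 for 29. At the other end, Control 2 had the lowest value of the 12 for 18 members. These libraries were singled out by the same values that are reported below, so the members' comparisons are given with and without them. Summed B cell markers were also highest of their group there, at 380 CPM in HBG 3, 266 CPM in Model 2 and 173 CPM in Control 4, and Cdkn1a, the gene of the CDK inhibitor p21, was lowest of its group there. The part of neither in the results was tested.

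**Figure D2:**
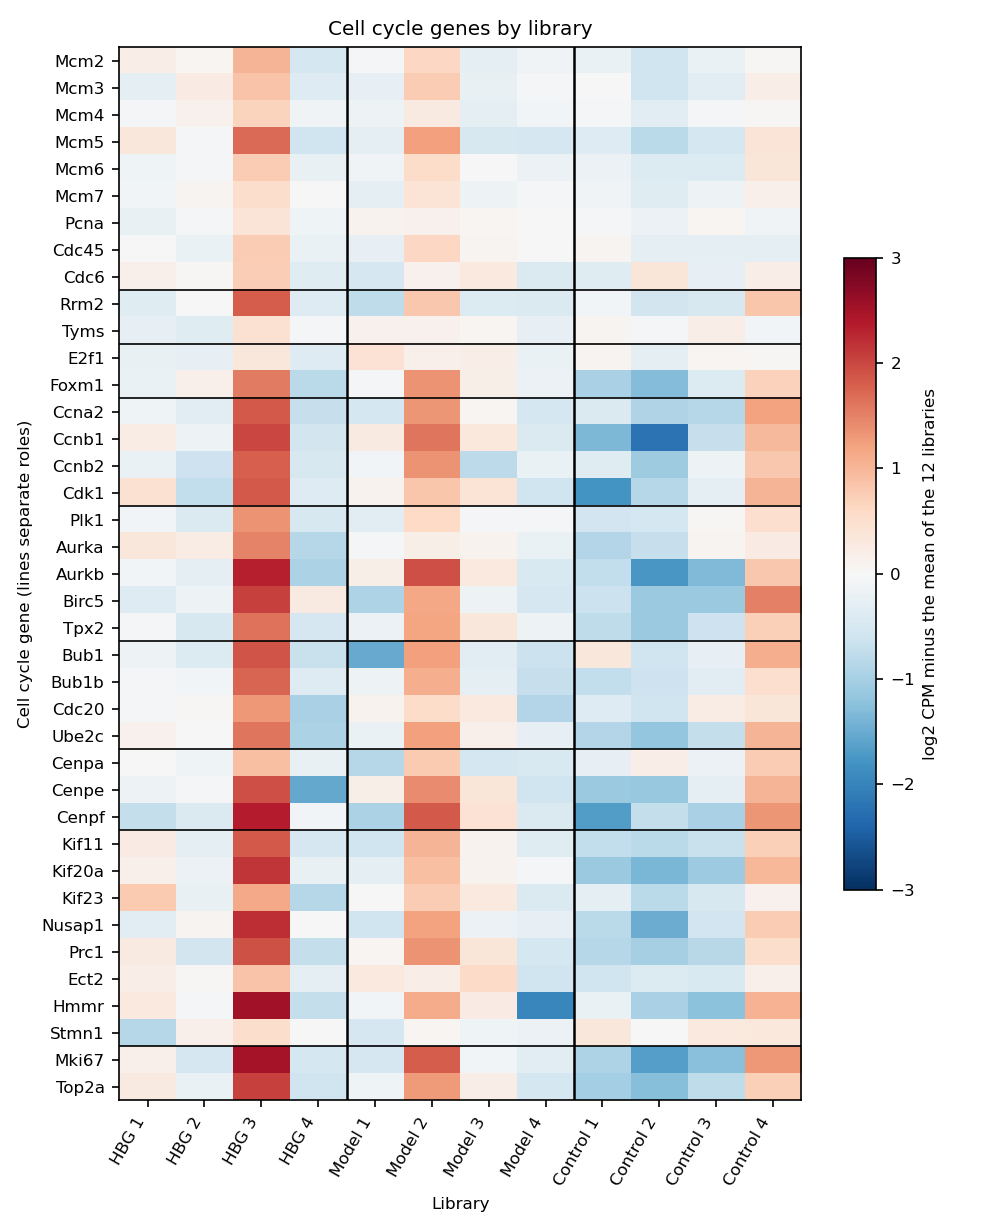
Heat map of the 39 cell cycle genes (rows, by role) in 12 libraries (columns, 4 HBG, 4 Model and 4 Control), coloured by log2 CPM minus the gene's mean over the 12 libraries. HBG 3, Model 2 and Control 4 form red columns through nearly the whole set, and all 39 genes in HBG 3 and in Model 2 lay above the gene's median of the 12 libraries.

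The proliferation marker Ki-67 and topoisomerase II alpha, which untangles the copied DNA, showed the pattern most plainly. Values are given in CPM for libraries 1 to 4 of each group. Mki67 had 13.2, 8.33, 67.1 and 8.21 CPM in the HBG libraries, 8.43, 41.6, 11.3 and 9.34 in the Model libraries and 6.25, 3.8, 4.97 and 29.4 in the Control libraries. Top2a had 12.5, 9.03, 43.4 and 6.88 CPM in the HBG libraries, 9.5, 25.3, 12 and 7.21 in the Model libraries and 5.12, 4.3, 6.14 and 17.1 in the Control libraries. For both genes a single library of each group stood far above its fellows, and the groups overlapped. Mki67 in HBG 3 was 6.77 times the mean of the other 3 HBG libraries, in Model 2 it was 4.30 times the other Model libraries, and in Control 4 it was 5.86 times the other Control libraries.

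The cyclins and CDK1 drive entry into mitosis, cyclin A2 acting from S phase on and the B cyclins in mitosis. Ccna2 had 3.73, 3.24, 14.6 and 2.55 CPM in the HBG libraries, 2.83, 10.2, 4.25 and 2.84 in the Model libraries and 3.02, 2.2, 2.25 and 9.53 in the Control libraries. Ccnb1 had 1.91, 1.46, 6.57 and 1.11 CPM in the HBG libraries, 1.97, 4.95, 2.04 and 1.22 in the Model libraries and 0.647, 0.350, 1.01 and 3.21 in the Control libraries. Cdk1, the catalytic partner of these cyclins, had 3.59, 1.57, 9.4 and 2.0 CPM in the HBG libraries, 2.83, 4.7, 3.48 and 1.73 in the Model libraries and 0.755, 1.45, 2.18 and 5.33 in the Control libraries. Each of the 3 was highest in HBG 3, and within Model and Control in Model 2 and Control 4. The 4 genes of this role were, at the median, 4.5 times as high in HBG 3 as in the other HBG libraries, 2.97 times in Model 2 and 3.74 times in Control 4. Ccnb2 is uncertain, because a pseudogene copy, Ccnb2-ps, held 1.63 to 3.19 CPM beside 1.0 to 7.28 CPM for Ccnb2 and reads could be divided between them. With both summed, HBG 3 (9.54 CPM), Model 2 (7.12 CPM) and Control 4 (6.22 CPM) remained the highest of their groups.

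Among the mitotic kinases, Aurkb encodes Aurora B of the chromosomal passenger complex, Birc5 the survivin subunit of that complex, and Plk1 the polo-like kinase of spindle assembly. Aurkb had 1.12, 0.973, 5.95 and 0.610 CPM in the HBG libraries, 1.33, 4.49, 1.45 and 0.863 in the Model libraries and 0.701, 0.350, 0.466 and 2.07 in the Control libraries. Plk1 had 2.19, 1.73, 5.91 and 1.66 CPM in the HBG libraries, 1.87, 3.53, 2.26 and 2.23 in the Model libraries and 1.56, 1.6, 2.37 and 3.31 in the Control libraries. Birc5 had 1.17, 1.35, 6.24 and 1.83 CPM in the HBG libraries, 0.800, 3.38, 1.36 and 1.07 in the Model libraries and 0.970, 0.701, 0.700 and 4.34 in the Control libraries. Aurkb varied more than Plk1, at 6.61 against 3.17 times the other HBG libraries in HBG 3. Aurka, the Aurora A kinase of the spindle poles, and Tpx2, its activator, ranged over 1.13 to 5.86 CPM and 1.80 to 12.2 CPM.

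The genes of the spindle checkpoint and of the ubiquitin ligase that ends mitosis followed the same libraries. Bub1, a checkpoint kinase, had 1.49, 1.24, 6.14 and 1.05 CPM in the HBG libraries, 0.587, 3.89, 1.31 and 1.07 in the Model libraries and 2.1, 1.1, 1.4 and 3.55 in the Control libraries. It was highest of each group in HBG 3, Model 2 and Control 4, and lowest of the 12 in Model 1. Bub1b, Cdc20 and Ube2c, which encode the checkpoint protein BUBR1, an activator of the ligase and its E2 enzyme, lay between 1.10 and 13.9 CPM. In this role the median library ratio was 3.64 in HBG 3, 2.61 in Model 2 and 2.20 in Control 4.

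Cenpa, Cenpe and Cenpf act at the centromere. Cenpa, the histone variant that marks it, had 5.55, 5.14, 10.6 and 4.82 CPM in the HBG libraries, 3.09, 9.69, 3.94 and 4.11 in the Model libraries and 4.74, 6.51, 4.97 and 9.58 in the Control libraries. It moved less than its neighbours in HBG 3, at 2.05 times the other HBG libraries. Cenpe, a kinetochore motor, and Cenpf, a kinetochore and matrix protein, moved more, with 5.22 and 6.74 times the other HBG libraries in HBG 3.

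The members of the spindle and of cytokinesis include motors (Kif11, Kif20a, Kif23), microtubule binders (Prc1, Nusap1, Hmmr), the RhoA activator Ect2 and stathmin. Prc1, which bundles the central spindle, had 5.36, 3.03, 16.7 and 2.72 CPM in the HBG libraries, 4.64, 11.4, 5.7 and 3.1 in the Model libraries and 2.48, 2.25, 2.53 and 6.42 in the Control libraries. Nusap1, a spindle-associated protein, had 2.1, 2.81, 12.3 and 2.66 CPM in the HBG libraries, 1.76, 6.11, 2.35 and 2.23 in the Model libraries and 1.51, 0.951, 1.79 and 4.49 in the Control libraries. Hmmr, the hyaluronan-mediated motility receptor that also binds the spindle, had 1.45, 1.14, 6.8 and 0.721 CPM in the HBG libraries, 1.12, 2.57, 1.4 and 0.305 in the Model libraries and 1.02, 0.601, 0.505 and 2.42 in the Control libraries. These 3 were highest in HBG 3, then in Model 2, and their groups overlapped. Stmn1, which encodes stathmin, a destabiliser of microtubules that is also made in cells outside the cycle, had 41.1, 82.2, 108 and 75.2 CPM in the HBG libraries, 52.3, 77, 68.7 and 65.5 in the Model libraries and 93.7, 74, 91.1 and 92.9 in the Control libraries. Stmn1 departed from the other members: Control 1, 3 and 4 lay within 91.1 to 93.7 CPM, and the lowest value of the 12 was in HBG 1. Ect2 was the exception in Model 2, where it had 6.06 CPM against 7.83 CPM in Model 3.

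**Figure D3:**
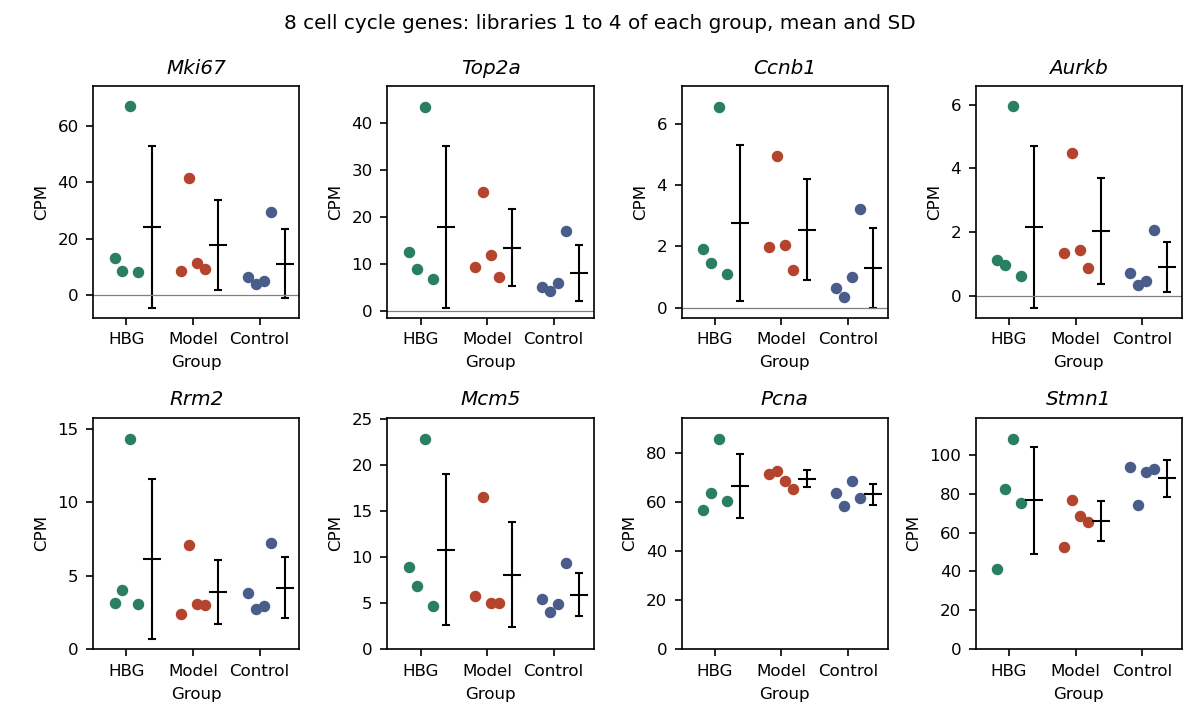
CPM of 8 cell cycle genes in libraries 1 to 4 of HBG, Model and Control (points, left to right within a group), with the mean and SD of each group beside them. In Mki67, Top2a, Ccnb1, Aurkb, Rrm2 and Mcm5 the HBG 3, Model 2 and Control 4 points stand above their groups, whereas Pcna and Stmn1 spread less in relation to their level.

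The genes of DNA replication had smaller ratios between libraries than those of mitosis. Mcm2 and Mcm5 encode subunits of the MCM helicase, and Pcna the sliding clamp of the polymerases. Mcm2 had 13.8, 12.5, 24.6 and 8.37 CPM in the HBG libraries, 11.8, 18.5, 10 and 11.2 in the Model libraries and 10.6, 7.96, 10.6 and 12.3 in the Control libraries. Mcm5 had 8.96, 6.87, 22.9 and 4.66 CPM in the HBG libraries, 5.76, 16.6, 5.07 and 5.02 in the Model libraries and 5.44, 4.05, 4.94 and 9.33 in the Control libraries. Pcna had 56.6, 63.5, 85.6 and 60.5 CPM in the HBG libraries, 71.5, 72.5, 68.5 and 65.1 in the Model libraries and 63.6, 58.3, 68.6 and 61.7 in the Control libraries. Mcm5 followed the 3 libraries closely and Mcm2 less so. Pcna was highest of its group in HBG 3 and, by a small margin, in Model 2. In Control 4 Pcna lay below Control 1 and Control 3. Over the 9 genes of this role the median ratio of a library to the other 3 of its group was 1.85 in HBG 3, 1.58 in Model 2 and 1.27 in Control 4. Cdc45, a part of the replicative helicase, was highest of its group in HBG 3 and Model 2 but lowest of its group in Control 4, and Cdc6, which loads the helicase, was highest of its group in HBG 3 alone of the 3.

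Of the enzymes that make deoxynucleotides, Rrm2 encodes the regulated subunit of ribonucleotide reductase and Tyms thymidylate synthase. Rrm2 had 3.17, 4.06, 14.3 and 3.11 CPM in the HBG libraries, 2.4, 7.12, 3.08 and 2.99 in the Model libraries and 3.83, 2.75, 2.91 and 7.21 in the Control libraries. Tyms had 6.95, 6.38, 11.3 and 7.87 CPM in the HBG libraries, 8.91, 9.04, 8.51 and 6.95 in the Model libraries and 8.68, 7.86, 9.44 and 7.8 in the Control libraries. Relative to the other libraries of the group, Rrm2 had ratios of 4.16 in HBG 3, 2.52 in Model 2 and 2.28 in Control 4, whereas those of Tyms were 1.60, 1.11 and 0.901. The transcription factors differed too. Foxm1, which activates genes of mitosis, had 3.13, 3.95, 10.5 and 2.05 CPM in the HBG libraries, 3.47, 9.14, 4.03 and 3.15 in the Model libraries and 1.83, 1.45, 2.68 and 5.77 in the Control libraries. E2f1, which activates genes of S phase, had 7.6, 7.46, 11.2 and 6.71 CPM in the HBG libraries, 12, 9.84, 10.1 and 7.71 in the Model libraries and 9.38, 7.26, 9.13 and 8.98 in the Control libraries. Foxm1 peaked in HBG 3, Model 2 and Control 4, and E2f1 did not peak in Model 2 or Control 4.

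Per length, the most abundant members were Stmn1, with a mean level of 79.5 CPM per kilobase over the 12 libraries, Pcna with 43.7 and Mcm6 with 9.50. The least abundant were Cenpf with 0.271 and Cenpe with 0.341 CPM per kilobase. Some genes of mitosis had few reads: the lowest count of Ccnb1 in a library was 7, against 1091 for Pcna.

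Set beside all genes, HBG 3 lay above the other 3 HBG libraries for 39 of 39 members (34.9% of all genes tested), Model 2 above the other Model libraries for 36 (30% of all genes) and Control 4 above the other Control libraries for 33 (27.4% of all genes). These libraries were picked by the values of the same members, so the members' counts and ratios follow in part from that choice. They cannot be read as a test against all genes. The median ratio was 3.54 over the members and 0.972 over all genes in HBG 3. It was 2.42 over the members and 0.964 over all genes in Model 2, and 2.28 against 0.993 in Control 4. The exceptions were Cdc6, E2f1 and Ect2 in Model 2, and Pcna, Cdc45, Cdc6, Tyms, E2f1 and Stmn1 in Control 4. For the 18 members with a CHR in the promoter the median ratio was 3.64 in HBG 3, 2.46 in Model 2 and 2.27 in Control 4, and for the 14 without one 2.65, 2.22 and 1.78. For the 11 with an E2F core it was 3.35, 1.92 and 1.94 in the same libraries, and for the 21 without one 3.54, 2.50 and 2.09. For the 7 with an E2F core and no CHR it was 1.96, 1.92 and 1.62. The 7 members without a matched promoter are left out of these classes. Of the 18 with a CHR, 16 were genes of mitosis, so motif and role cannot be told apart here. The ranges within these classes overlapped, and their differences were not tested.

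The comparison of Model with Control asked what bleomycin changed. No member passed the threshold of an adjusted p of 0.05 (edgeR's quasi-likelihood test, Benjamini-Hochberg over 17827 genes), and 0.348% of all genes did. The smallest adjusted p of a member was 0.511 in edgeR, and no member had an unadjusted p under 0.05, against 11.7% of all genes. DESeq2 and limma-voom called no member either. No member separated the groups completely, which 4.2% of all genes did upward and 4.51% downward. The estimated fold change was above 1 for 32 of 39 members, against 51.5% of all genes, with a median fold of 1.26. That count rested on single libraries: without Model 2 it was 18 of 39 with a median of 0.984, and without Control 4 it was 35 of 39 with a median of 1.66.

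The highest estimates in this comparison were those of Aurkb, Ccnb1 and Prc1. Aurkb averaged 2.03 ± 1.66 CPM in Model and 0.898 ± 0.797 CPM in Control (SD, n = 4 each), a log2 fold change of 1.18 ± 0.82 (SE). Ccnb1 averaged 2.54 ± 1.65 CPM in Model and 1.30 ± 1.30 CPM in Control, a log2 fold change of 0.96 ± 0.74. For Prc1 the log2 fold change was 0.86 ± 0.62. All 3 had their highest Control value above at least 1 Model value. The lowest were Stmn1 at -0.42 ± 0.23, Cenpa at -0.31 ± 0.39 and Bub1 at -0.25 ± 0.69, where the sign of Bub1 turned when either Model 1 or Control 4 was left out. Mki67 averaged 17.7 ± 16.0 CPM in Model and 11.1 ± 12.2 CPM in Control, a log2 fold change of 0.67 ± 0.87, which was -0.19 without Model 2. Top2a had a log2 fold change of 0.73 ± 0.64.

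The comparison of HBG with Model asked whether the granules altered the response to bleomycin. No member passed the threshold, and 0% of all genes did. The smallest adjusted p of a member was 1.0 in edgeR, and no member had an unadjusted p under 0.05, against 2.43% of all genes. DESeq2 and limma-voom called no member. No member separated the groups, which 0.454% of all genes did upward and 0.673% downward. The fold change was above 1 for 35 of 39 members (50.1% of all genes), with a median of 1.16. Without HBG 3 it was above 1 for 3 of 39, with a median of 0.802, and without Model 2 the median was 1.5. The direction of the set between HBG and Model therefore depended on which library was present.

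Among single members, the highest log2 fold changes of HBG against Model were 0.91 ± 0.78 for Hmmr, 0.68 ± 0.74 for Birc5 and 0.68 ± 0.65 for Nusap1. Without HBG 3 they were -0.29 for Hmmr, -0.19 for Birc5 and -0.30 for Nusap1. Mki67 averaged 24.2 ± 28.7 CPM in HBG and 17.7 ± 16.0 CPM in Model, a log2 fold change of 0.46 ± 0.86, which was -0.83 without HBG 3. Top2a had 0.41 ± 0.63, and -0.51 without HBG 3. E2f1 was the lowest, at -0.26 ± 0.19, with Pcna and Tyms next. HBG 3 held the highest HBG value of E2f1, so leaving it out lowers the HBG mean and could not turn this negative sign.

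The comparison of HBG with Control asked how lungs given both agents stood against Control lungs, and it shares its Control libraries with the first comparison and its HBG libraries with the second. No member passed the threshold, and 0.151% of all genes did. The smallest adjusted p of a member was 0.641 in edgeR, and no member had an unadjusted p under 0.05, against 8.25% of all genes. DESeq2 and limma-voom called none. No member separated the groups, which 2.41% of all genes did upward and 3.92% downward. The fold change was above 1 for 36 of 39 members (51% of all genes), with a median of 1.56. Without HBG 3 it was above 1 for 18 of 39, with a median of 0.984, and without Control 4 the median was 1.99.

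The highest log2 fold changes of HBG against Control were 1.28 ± 0.82 for Aurkb, 1.19 ± 0.66 for Nusap1 and 1.16 ± 0.79 for Hmmr. Mki67 averaged 24.2 ± 28.7 CPM in HBG and 11.1 ± 12.2 CPM in Control, a log2 fold change of 1.13 ± 0.87, and without HBG 3 it was -0.16. Hmmr was -0.03 without HBG 3. Top2a had 1.14 ± 0.64. Stmn1 was the lowest, at -0.20 ± 0.23, and it turned to 0.01 without HBG 1. E2f1 and Tyms were next.

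The cell cycle score puts the libraries in 1 order: it averages log2 CPM over the 39 members and subtracts the mean of the 12 libraries. It was -0.03, -0.16, 1.44 and -0.45 in HBG libraries 1 to 4, -0.23, 0.88, 0.02 and -0.37 in Model, and -0.51, -0.74, -0.43 and 0.57 in Control. Group means were 0.201 ± 0.842 in HBG, 0.0749 ± 0.558 in Model and -0.276 ± 0.577 in Control (SD, n = 4 each). The difference was 0.351 for Model minus Control, 0.126 for HBG minus Model and 0.478 for HBG minus Control, each smaller than the SD of either of its groups. Model minus Control was 0.0847 without Model 2 and 0.624 without Control 4. HBG minus Model was -0.286 without HBG 3, -0.0211 without Model 4 and 0.393 without Model 2. HBG minus Control was 0.0656 without HBG 3 and 0.748 without Control 4.

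Leaving out HBG 3, Model 2 and Control 4 together, the highest library of each group, narrows the spread by construction, and its p-values are not comparable with those above. The 3 libraries were picked by the values of these members, so the members' counts here depend on that choice and cannot be read against the shares of all genes beside them. The score then was 0.290, 0.155 and -0.116 in HBG libraries 1, 2 and 4, 0.083, 0.329 and -0.048 in Model libraries 1, 3 and 4, and -0.196, -0.400 and -0.097 in Control libraries 1, 2 and 3. Differences of the score were 0.352 for Model minus Control, -0.0119 for HBG minus Model and 0.340 for HBG minus Control. No member passed the threshold in any of the 3 comparisons (0.258%, 0% and 0.123% of all genes did). Against Control, 11 of 39 members in Model (28.2%, and 5.65% of all genes) and 6 of 39 in HBG (15.4%, and 2.92% of all genes) were higher with an unadjusted p under 0.05. Groups separated upward for 11 members in Model (8.33% of all genes) and for 11 in HBG (6.06% of all genes). Between HBG and Model, 18 of 39 members had a fold above 1 (50.1% of all genes), and the median fold was 0.995.

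The members that separated from Control in this reduced set are named after their values were seen. Mki67 averaged 9.57 ± 1.40 CPM in Model and 4.99 ± 1.18 CPM in Control (SD, n = 3 each), a log2 fold change of 0.94 with an adjusted p of 0.259 in edgeR. In HBG it averaged 9.84 ± 2.79 CPM, a log2 fold change of 0.98 against Control with an adjusted p of 0.336 in edgeR. Kif20a, a kinesin of cytokinesis, averaged 2.45 ± 0.308 CPM in Model and 1.13 ± 0.107 CPM in Control, and its adjusted p of 0.147 in edgeR was the smallest of the 39. In HBG Kif20a averaged 2.44 ± 0.363 CPM, with an adjusted p of 0.190 against Control in edgeR. Tpx2, Kif11, Ccnb1, Prc1 and Top2a also separated from Control in both groups, Foxm1, Aurkb, Ube2c and Mcm6 in Model, and Mcm7, Birc5, Nusap1 and Ect2 in HBG. Stmn1 and Cenpa separated downward in Model (9.01% of all genes), and Tyms in HBG (8.46% of all genes). Fold changes were above 1 for 32 of 39 members in Model (48.7% of all genes) and 31 in HBG (49.8% of all genes). When Control 4 alone was left out, a library also picked by these values, 4 members in Model (4.68% of all genes) and 14 in HBG (3.61% of all genes) were higher than in Control at an unadjusted p under 0.05.

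**Figure D4:**
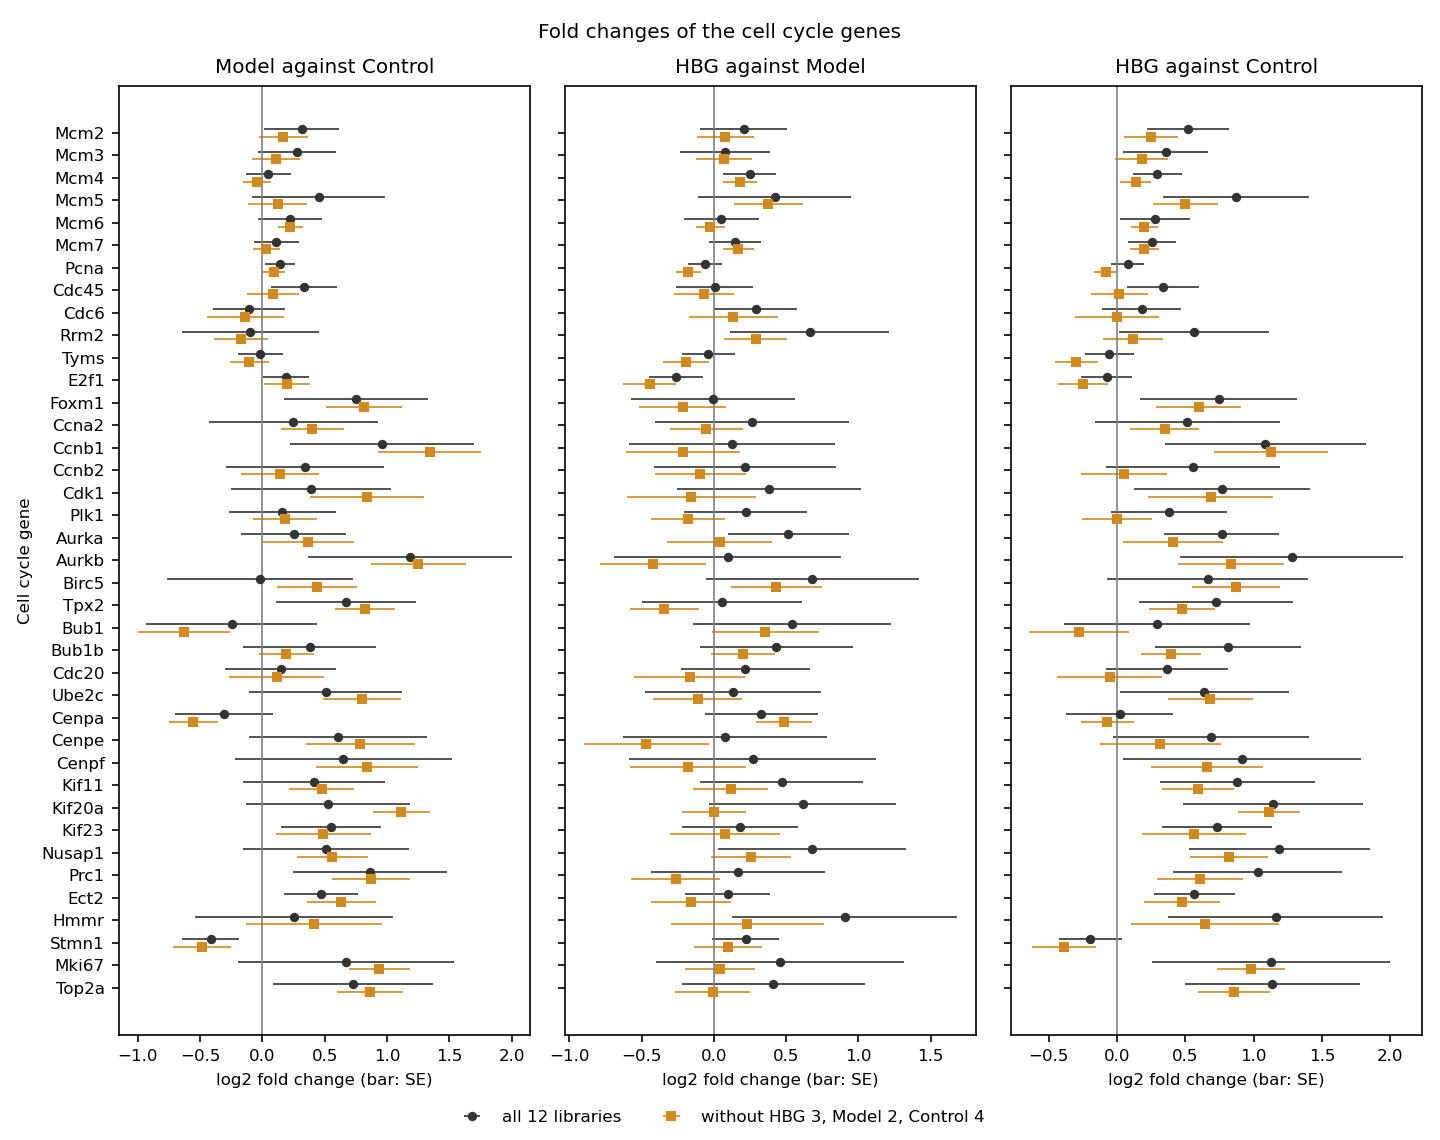
Log2 fold changes of the 39 members (points, with SE bars) in 3 panels, Model against Control, then HBG against Model, then HBG against Control, from all 12 libraries (dark circles) and without HBG 3, Model 2 and Control 4 (orange squares). Against Control most points lie right of 0 in either fit, with 32 of 39 for Model, whereas for HBG against Model 35 of 39 lie right of 0 with all libraries and 18 of 39 without the 3. In fits not drawn, 18 of 39 were above 0 in Model against Control without Model 2 alone. The same count held in HBG against Control without HBG 3 alone.

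A wider list of 130 other cell cycle genes, of which 127 were tested, was read beside the members. None of the 127 passed the threshold in any of the 3 comparisons in edgeR. In Model against Control, DESeq2 called 1 of 128 tested (418 of 18219 over all genes). There limma-voom with quality weights called 5 of 127 (1079 of 17827 over all genes). These genes are not named here. In HBG against Model and in HBG against Control both methods called none of the list. At an unadjusted p under 0.05 in edgeR there were 5 of 127 in Model against Control (11.7% of all genes), 0 in HBG against Model (2.43% of all genes) and 6 in HBG against Control (8.25% of all genes). Fold changes were above 1 for 90 of the 127 in Model against Control (51.5% of all genes), 99 in HBG against Model (50.1%) and 100 in HBG against Control (51%), with medians of 1.11, 1.11 and 1.17. These counts moved with single libraries, as the members' counts did. Without HBG 3, 33 of 127 had a fold above 1 in HBG against Model and 58 in HBG against Control. Without Model 2, 64 had one in Model against Control. Without all 3 libraries, 124 of the list were tested, and the fold was above 1 for 85 in Model against Control, 56 in HBG against Model and 83 in HBG against Control. HBG 3 lay above the other HBG libraries for 92 of the 127, Model 2 above the other Model libraries for 77 and Control 4 above the other Control libraries for 79, with median ratios of 1.76, 1.40 and 1.28. The 63 tested genes of mitosis in that list had a median fold of 1.22 in Model against Control and 1.43 in HBG against Control, and the 29 of DNA replication 1.03 and 1.11.

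The CDK inhibitors, which hold cells out of the cycle, and the D and E cyclins, which bring them in, did not move as sets. Cdkn1a and the cyclin D1 gene Ccnd1 were lowest of each group in HBG 3, Model 2 and Control 4. In contrast, Cdkn2c and the E cyclin genes Ccne1 and Ccne2 were highest of each group there, as most members were. The other inhibitors and D cyclins did neither in all 3 libraries. Cdkn1a encodes p21, the inhibitor induced by p53. Cdkn1a had 477, 568, 73.5 and 520.0 CPM in the HBG libraries, 751, 174, 681 and 566 in the Model libraries and 508, 579, 615 and 55.4 in the Control libraries. Its lowest value in each group fell in HBG 3, Model 2 and Control 4, the libraries highest in the mitotic genes. Between groups it did not pass the threshold (adjusted p of 0.906 in edgeR for Model against Control, 1.0 for HBG against Model and 0.981 for HBG against Control). Cdkn2a, which encodes p16 and ARF, had 1.07, 0.541, 0.803 and 0.222 CPM in the HBG libraries, 1.87, 0.757, 1.36 and 0.254 in the Model libraries and 0.323, 0.300, 0.350 and 0.346 in the Control libraries. The 4 Control values lay within 0.300 to 0.350 CPM, and Model 4 and HBG 4 lay below them. Its log2 fold change in Model against Control was 1.66 ± 0.57 with an adjusted p of 0.293 in edgeR. Cdkn1b, Cdkn1c, Cdkn2b, Cdkn2c and Cdkn2d, the genes of p27, p57, p15, p18 and p19, had adjusted p-values of 0.539 or more in edgeR in all 3 comparisons.

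Cyclin D2 was the one D or E cyclin whose Model values all exceeded the Control values. Ccnd2 had 302, 142, 185 and 154 CPM in the HBG libraries, 184, 169, 207 and 169.6 in the Model libraries and 145, 154, 156 and 138 in the Control libraries. The adjusted p was 0.590 in edgeR for Model against Control, and the HBG values overlapped both other groups. Ccnd1 averaged 380 ± 111 CPM in HBG, 426 ± 104 CPM in Model and 347 ± 28.3 CPM in Control (SD, n = 4 each). Ccnd3 averaged 119 ± 5.61 CPM in HBG, 131 ± 18.9 CPM in Model and 121 ± 12.8 CPM in Control. Ccne1 averaged 1.54 ± 1.09 CPM in HBG, 1.2 ± 0.361 CPM in Model and 0.827 ± 0.276 CPM in Control, and Ccne2 averaged 3.75 ± 0.993 CPM in HBG, 2.86 ± 0.598 CPM in Model and 2.63 ± 0.689 CPM in Control. None of the 11 genes of the G1 list, these cyclins included, had an unadjusted p under 0.05 in edgeR in the 3 comparisons.

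Several lists of blood cell markers were high in the libraries where the cell cycle genes were high, and others were not. Over all genes tested, 34.9% were highest of the group in HBG 3, 30% in Model 2 and 27.4% in Control 4. The share of all genes highest in all 3 libraries was not computed, so the marker counts below have no such share beside them. The 6 B cell markers were each highest of the group in HBG 3, Model 2 and Control 4. Summed, they had 380 CPM in HBG 3 against 35.4 to 76.6 CPM in the other HBG libraries, 266 CPM in Model 2 against 37.8 to 50.1 CPM in the other Model libraries, and 173 CPM in Control 4 against 17.7 to 46.2 CPM in the other Control libraries. Of the 6 T cell markers 5 were highest in all 3 libraries. Of the 12 markers of developing T cells 9 were, with summed levels of 61.1 to 179 CPM in HBG, 38.6 to 174 CPM in Model and 41.0 to 91.2 CPM in Control. Within that list Rag2 and Ptcra were at or below 0.101 CPM in all libraries. Rag1, which cuts antigen receptor genes in lymphocyte precursors, had 14 counts in HBG 3, 19 in Model 2, 4 in Control 4, 1 in HBG 2 and 0 in the other 8 libraries. The largest counts of this list in HBG 3 were 1229 for Tcf7, 788 for Satb1 and 630 for Lck. Whether the list's RNA came from developing or from mature T cells was not tested.

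Of the 6 markers of granulocyte precursors, 5 were highest of the group in HBG 3, Model 2 and Control 4 and had at most 3 counts in each of the other 9 libraries. The exception was Prtn3, which encodes proteinase 3. It had 20 counts in HBG 3 against 11 to 28 in the other HBG libraries, 17 in Model 2 against 9 to 20 in the other Model libraries, and 27 in Control 4 against 11 to 18 in the other Control libraries. Mpo, the myeloperoxidase gene of that stage, had 38 counts in HBG 3, 30 in Model 2 and 12 in Control 4, and at most 1 count in each of the other 9. In Control 4 Elane and Ms4a3 had 1 count each, Cebpe had 5, and Ctsg had 4 against 3 in Control 3. A count of 0 allows 3 counts, so the rank of Elane, Ms4a3 and Ctsg in Control 4 lies within counting error. The sum of the 6 markers was 0.665 to 4.87 CPM in HBG, 0.609 to 3.48 CPM in Model and 0.647 to 2.47 CPM in Control. Of the 10 erythroid markers 5 were highest in all 3, but Control 1 had the same sum as Control 4 (4494 CPM each). The 6 neutrophil markers were highest in HBG 3 and in Model 2 and not in Control 4, where the sum was 132 CPM against up to 183 CPM in another Control library. Of the 6 germinal centre markers 1 was highest in all 3 libraries. None of the 6 plasma cell markers was. Their sum was 446 CPM in HBG 3 (490 to 969 CPM in the other HBG libraries), 448 CPM in Model 2 (448 to 885 CPM in the others) and 443 CPM in Control 4 (499 to 537 CPM in the others).

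The other lists differed among themselves too. Of the 10 markers of lung epithelium and endothelium used to check the tissue, 2 were highest in all 3 libraries. Of the 8 capillary endothelium markers 6 were highest in all 3 libraries, with a sum of 1292 CPM in HBG 3 (377 to 933 CPM in the other HBG libraries), 1213 CPM in Model 2 (539 to 917 CPM in the others) and 1175 CPM in Control 4 (725 to 1153 CPM in the others). Of the 8 fibroblast markers 3 were, of the 10 alveolar macrophage markers 1, and of the 12 markers of monocyte-derived macrophages 1. The alveolar macrophage marker was Car4, which is on the capillary endothelium list too and was counted there as well. Among the 8 alveolar type II markers none was highest in all 3. The 6 markers of transitional alveolar epithelium had their lowest sum of each group there, at 423 CPM in HBG 3 (615 to 1545 CPM in the others), 692 CPM in Model 2 (806 to 1137 CPM in the others) and 608 CPM in Control 4 (614 to 927 CPM in the others). Of the 12 cardiac muscle markers 1 was highest in all 3, and the sum was 374 CPM in HBG 3 (1257 to 3528 CPM in the others), 1354 CPM in Model 2 (376 to 3360 CPM) and 2474 CPM in Control 4 (896 to 5897 CPM). Of the 10 immediate early genes, which respond fast to many stimuli, none was highest in all 3. Their sum was 783 CPM in HBG 3 (898 to 1495 CPM in the others), 1285 CPM in Model 2 (846 to 1186 CPM) and 956 CPM in Control 4 (1250 to 5230 CPM). No marker of these lists was at 0 in all 12 libraries. The part of these cell types in the cell cycle result was not tested.

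**Figure D5:**
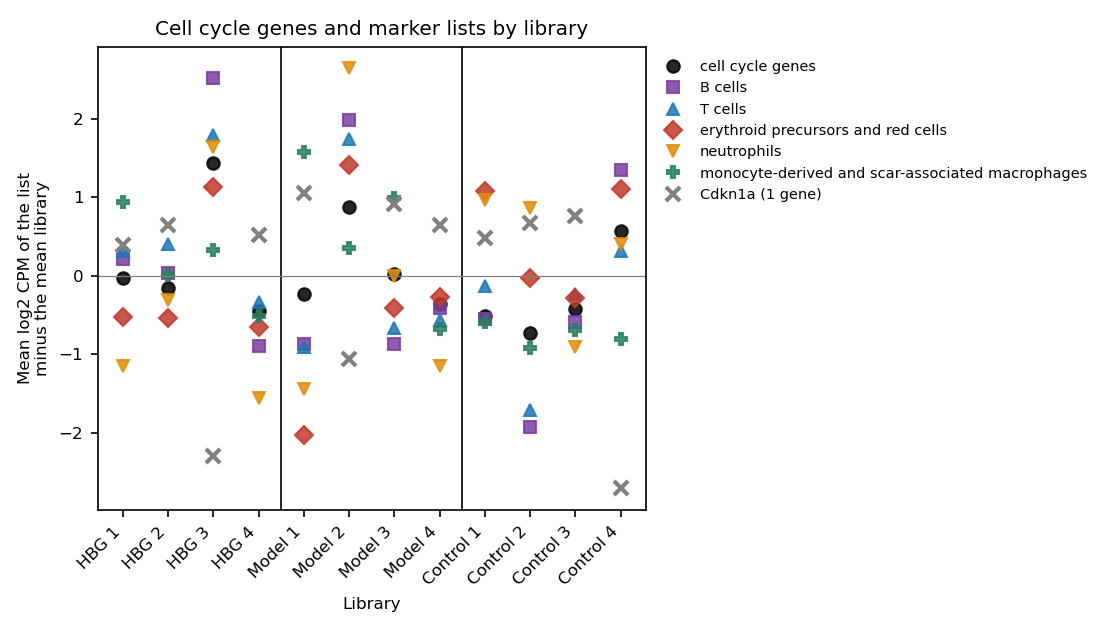
Mean log2 CPM of the cell cycle genes, of 5 marker lists and of Cdkn1a in each library of HBG, Model and Control, each relative to its mean over the 12 libraries. The cell cycle genes (black circles) peak in HBG 3 (1.44), Model 2 (0.88) and Control 4 (0.57), where the B cell squares are also highest and the Cdkn1a crosses lowest within each group.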

How the data were processed

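Polyadenylated RNA of mouse lung was sequenced in 12 libraries with a TruSeq stranded kit as paired reads of 150 bases, per the labels' protocols. The authors deposited estimated counts per gene in 1 table. The header gives no unit, and it was inferred from the numbers, of which 10.0% to 15.1% in a library were not whole. Per the submitters' processing notes, the tools include featureCounts 2.0.1 and HTSeq, STAR 2.7.9a and HISAT2, cutadapt, Trimmomatic 0.39 and fastp, DESeq2 1.34.0 and FastQC 0.11.9, and the builds mm10 and GRCm39. The sources used here do not say which of them made the counts, or whether strand was used, so gene coordinates of the table are not printed. The deposited group means were not used. The deposited gene length served for CPM per kilobase.

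Counts were rounded to whole numbers and tested with edgeR 4.0.16 (R 4.3.3, TMM factors, filterByExpr, quasi-likelihood F test) in 1 fit of all 12 libraries by group. Two-sided p-values were adjusted over all 17827 tested genes (Benjamini-Hochberg, threshold 0.05). CPM uses the TMM factors, and the score a prior count of 2. DESeq2 1.42.0, limma-voom (limma 3.58.1) with quality weights, other factors and filters, a fit of 2 groups, the replicate number as a block and left-out libraries were the alternatives. The fit was checked on simulated counts. Of 100 genes given a 2-fold change it recovered 43 to 50, depending on the comparison. Of 100 given a 4-fold change it recovered 76 to 84. A member that was not called could therefore still differ between groups. Libraries of a group differed beyond sampling noise (chi-square per degree of freedom 11.7 or more).

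The members and lists were chosen with earlier results of these data known. Values by library are printed for Mki67, Top2a, Cdk1, Ccnb1, Ccna2, Aurkb, Plk1, Mcm2, Mcm5, Pcna, Rrm2, E2f1, Foxm1 and Stmn1, for any member past the threshold, and for the 3 highest and 3 lowest fold changes in each comparison. CDK inhibitors, D and E cyclins and any other listed gene past the threshold in edgeR are named too. Other names were chosen after their values were seen. Promoters are those of the RefSeq table on GRCm38.p6, matched by symbol.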

Additional observations from a re-analysis of the deposited data

Results flagged for a closer look

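Among 66 sets of 4 libraries, formed by the 21 members with values by library and the score, 25 held a library whose gap to its nearest fellow exceeded Dixon's 95% critical value for 4 samples. Chance gives such a gap in about 1 in 20 independent sets of normally distributed values. These sets are not independent, since they share 12 libraries and their genes vary together, and some of the members were named for their fold changes, so the number of sets with a gap is a description. HBG 3 was that library in 12 sets, Model 2 in 7, Control 4 in 5 and Control 2 in the remaining 1. All 25 were sets of a single member's CPM. The score over all members, which is on a log2 scale, had no such gap in any group. No explanation was tested.

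HBG 3 stood above the other HBG libraries in genes of mitosis above all. Its values there were 67.1 CPM for Mki67, 43.4 for Top2a, 14.6 for Ccna2, 6.57 for Ccnb1, 5.95 for Aurkb and 5.91 for Plk1. It also stood apart with 12.3 CPM for Nusap1, 10.6 for Cenpa, 6.8 for Hmmr, 6.24 for Birc5 and 6.14 for Bub1. Among genes of S phase it did so for Rrm2, with 14.3 CPM.

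Model 2 stood above the other Model libraries with 41.6 CPM for Mki67, 16.6 for Mcm5, 9.69 for Cenpa, 9.14 for Foxm1, 7.12 for Rrm2, 6.11 for Nusap1 and 4.49 for Aurkb. Control 4 stood above the other Control libraries with 29.4 CPM for Mki67, 17.1 for Top2a, 9.53 for Ccna2, 6.42 for Prc1 and 4.34 for Birc5. Control 2 stood below the other Control libraries with 74.0 CPM for Stmn1.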

How the results depend on the processing

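No member was called in any of the 3 comparisons under the 17 alternatives run for each, which were DESeq2, limma-voom with quality weights, 2 other scalings, 2 other filters, a fit of 2 groups, the replicate block, the 3 libraries left out together and single libraries left out. DESeq2 tested 38 of the 39 members. At an unadjusted p under 0.05, limma-voom gave 6 members in Model against Control (24.6% of all genes), 1 in HBG against Model (14.8%) and 0 in HBG against Control (9.87%), and DESeq2 gave 0 in each. Under limma-voom the median fold of the members was 1.2 in Model against Control, 0.897 in HBG against Model and 1.10 in HBG against Control, with sample weights of 0.231 for HBG 3, 0.330 for Model 2 and 0.962 for Control 4. With single libraries left out, the score difference ranged from 0.0847 to 0.624 for Model minus Control, from -0.286 to 0.393 for HBG minus Model and from 0.0656 to 0.748 for HBG minus Control.

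Over all genes, Model against Control gave 62 calls in edgeR, 418 in DESeq2, 1079 in limma-voom and 23 to 67 with a library left out. HBG against Model gave 0 in edgeR and 3 in DESeq2. HBG against Control gave 27 in edgeR, 193 in DESeq2, 101 in limma-voom and 16 to 25 with a library left out.

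Same-numbered libraries were not regularly alike: the correlation of same-numbered deviations ranged from -0.197 to 0.158 between Model and Control, from -0.195 to 0.481 between HBG and Model and from -0.357 to -0.102 between HBG and Control. The same number was the closest match for Model 1 among the Control libraries and for HBG 1 and HBG 4 among the Model libraries. It was not the closest match in the remaining cases. With so few libraries, the check does not settle whether the numbers pair them. With the replicate number as a block, 25, 0 and 17 genes were called in these comparisons, and 0 members in each.

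Of the named log2 fold changes, 15 of the values under an alternative reversed in sign, and the cause was not tested. In Model against Control, Bub1 was 0.04 without Model 1 and ranged from -1.03 without Model 2 to 0.16 without Control 4, and Mki67 ranged from -0.19 without Model 2 to 1.81 without Control 4. In HBG against Model, limma-voom gave -0.16 for Hmmr, -0.30 for Top2a and -0.17 for Mki67, and without the 3 libraries Top2a was -0.0074. The same comparison ranged, from the value without HBG 3 to that without Model 2, from -0.19 to 1.30 for Birc5, from -0.29 to 1.42 for Hmmr, from -0.51 to 0.91 for Top2a, from -0.30 to 1.23 for Nusap1 and from -0.83 to 1.32 for Mki67. In HBG against Control, Stmn1 ranged from -0.41 without HBG 3 to 0.0098 without HBG 1. From the value without HBG 3 to that without Control 4, Hmmr ranged from -0.034 to 1.84 and Mki67 from -0.16 to 2.27.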

Other observations

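Of the 127 other cell cycle genes tested, 3 lay higher and 3 lower in each Model library than in any Control library, against 4.2% and 4.51% of all genes. In HBG against Control 2 lay higher and 0 lower (2.41% and 3.92% of all genes), and in HBG against Model 1 higher and 0 lower (0.454% and 0.673%). None passed the threshold in edgeR, and those named here were chosen after their values were seen. Tfdp1 and Tfdp2, which encode the DP partners of E2F factors, were higher in each Model library than in any Control library. Tfdp1 averaged 46.5 ± 2.62 CPM in Model and 38.5 ± 1.62 CPM in Control (SD, n = 4 each; adjusted p = 0.283 in edgeR), and Tfdp2 averaged 78.7 ± 3.87 CPM in Model and 65.1 ± 2.43 CPM in Control (adjusted p = 0.338 in edgeR). Dut, which encodes the dUTPase that keeps uracil out of DNA, averaged 9.13 ± 1.26 CPM in Model and 13.7 ± 2.08 CPM in Control, with no overlap and an adjusted p of 0.158 in edgeR, the smallest of the 127 in that comparison. Gmnn, the gene of the licensing inhibitor geminin, also lay lower in each Model library than in any Control library. In HBG against Control, Kifc1, a minus-end kinesin of the spindle, averaged 3.97 ± 1.31 CPM in HBG and 2.28 ± 0.347 CPM in Control, with no overlap and an adjusted p of 0.455 in edgeR. In HBG against Model, Prim1, a subunit of primase, was the single gene of the 127 without overlap, at 6.95 ± 0.358 CPM in HBG and 5.76 ± 0.270 CPM in Model.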
